A study of Sus scrofa with 8 samples.

Results

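Interferon-stimulated genes were examined in the olfactory epithelium of newborn piglets as a list of 41 genes, each taken as a row of the gene count table whose pig identifier carries the gene's symbol. Identifiers were found for 37 of the 41, among 25880 pig genes in the table, and 36 of these had enough reads to be tested, among 17175 genes tested. No identifier was paired with DDX58, OAS1, IFIT3 or XAF1, which are not analysed here. ISG20 was matched but held 2 to 19 reads per library and was not tested. The study compared olfactory tissue with and without CFTR, an anion channel whose loss causes cystic fibrosis. Bulk mRNA was sequenced from 8 animals, 4 wild-type piglets (numbered 5, 9, 12 and 23) and 4 CFTR knockout piglets (6, 18, 20 and 21), all newborn. The labels give no sex, litter, sequencing batch or infection status, and no treatment. The dissected tissue was frozen whole, so fewer cells of a type and less RNA per cell cannot be told apart.

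Interferons are cytokines released when cells sense viral or other foreign nucleic acid. Type I and type III interferons bind their receptors and, through the kinases JAK1 and TYK2, activate a complex containing STAT2 and IRF9 that switches on many interferon-stimulated genes, whereas the response to type II interferon (IFNG) involves IRF1. The products sense viral RNA, block translation and viral entry, tag proteins with the ubiquitin-like ISG15, and limit the response itself. In the nose, the olfactory epithelium is exposed to inhaled virus. Many interferon-stimulated genes have a basal level also in the absence of infection, but the infection status of these piglets is not given.

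Library totals ranged from 30836904 to 43253395 reads, and values are given as CPM, counts scaled to 1000000 reads and by the TMM factor of each library. Wild-type values are listed in the order of piglets 5, 9, 12 and 23, and knockout values in the order 6, 18, 20 and 21. CFTR itself was 56.6, 34.3, 34.03 and 36.6 CPM in the wild-type piglets and 6.31, 5.24, 7.43 and 8.37 CPM in the knockout piglets, which corresponds to -2.56 ± 0.21 on the log2 scale (fold change ± SE; edgeR adjusted p = 0.0121), so the groups did not overlap and the libraries matched their genotype labels. Knockout piglets kept 16.9% of the wild-type mean of CFTR. The call was lost without piglet 6 (adjusted p = 0.122) or piglet 20 (0.0544), and adjusted p-values over all alternatives ran from 2.02e-27 to 0.169. The summed level of 13 matched markers of olfactory sensory neurons ran from 3824 CPM in wild-type piglet 5 to 6110 CPM in knockout piglet 21. OMP was not matched. Knockout piglet 18 stood apart with 37338 CPM of bone and connective tissue markers, against 790.0 to 3979 CPM in the other libraries. Reads of Y-linked genes were present in wild-type piglets 9 and 12 and in no knockout piglet, so the groups were not matched in this respect.

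None of the 36 tested members passed an adjusted p of 0.05 in either direction, where 0.00582% of all genes tested did (CFTR alone). DESeq2 also called 0 members, against 1.28% of all genes. By direction, 26 of the 36 members (72.2%) had a positive log2 fold change, knockout minus wild type, against 51.6% of all genes tested. The median was 0.23 over the members and 0.01 over all genes, and single members ranged from -0.35 for GBP1 to 1.14 for MX2. Some marker lists of other cells had similar values. Of the olfactory sensory neuron markers, 12 of 13 were positive (median 0.23, and 4 at an unadjusted p under 0.05 in the higher direction). So were 10 of 12 macrophage and monocyte markers (median 0.23) and 5 of 5 dendritic cell markers (median 0.21). Bone and connective tissue markers were positive in 6 of 6 (median 2.17) and erythroid markers in 4 of 4 (median 1.05). The summed macrophage, bone and erythroid markers were highest in knockout piglet 18. Other lists went the other way, with 1 of 5 supporting and basal cell markers positive (median -0.23). The same held for endothelial markers (1 of 4, median -0.11) and neutrophil markers (3 of 7, median -0.10). The part of cell content in the members' direction was not tested. Adjusted p-values of the members ran from 0.371 to 0.997. At an unadjusted edgeR p under 0.05, 2 of 36 members (USP18 and MX2) were higher in knockout piglets, close to the 5.4% of all genes, and 0 were lower, where 5.8% of all genes were. All 4 knockout values lay above all 4 wild-type values in 1 member, USP18, against 2.45% of all genes, and below them in 0, against 3.36%.

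Among the members, 1 knockout piglet stood apart. Knockout piglet 21 had the highest value of the 8 libraries in 25 of the 36 members (69.4%), where it was highest in 9.51% of all genes tested, and it was lowest in 0. The 11 exceptions were IRF9, OAS2, OASL, EIF2AK2, GBP1, TRIM25, BST2, SAMD9, IFI35, DTX3L and CXCL10. Its members stood at a median of 0.83 above the wild-type mean on the log2 scale, and those of the other 7 libraries at -0.22 to 0.13. The summed level of the members was 1640 CPM in piglet 21 and 767 to 960.2 CPM in the others. Over all genes tested, the median of piglet 21 was 0.0042 from the wild-type mean. TMM scaling holds this median near 0 in every library (-0.0055 to 0.018 here), so it gives no separate check on piglet 21. The members' position is thus relative to the bulk of genes in the same library. At the low end, knockout piglet 18 held the lowest value in 14 members (38.9%), against 10.6% of all genes, and wild-type piglet 12 in 9 (25%), against 10.8%. The high and the low extreme of the members were therefore both knockout animals.

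**Figure D1:**
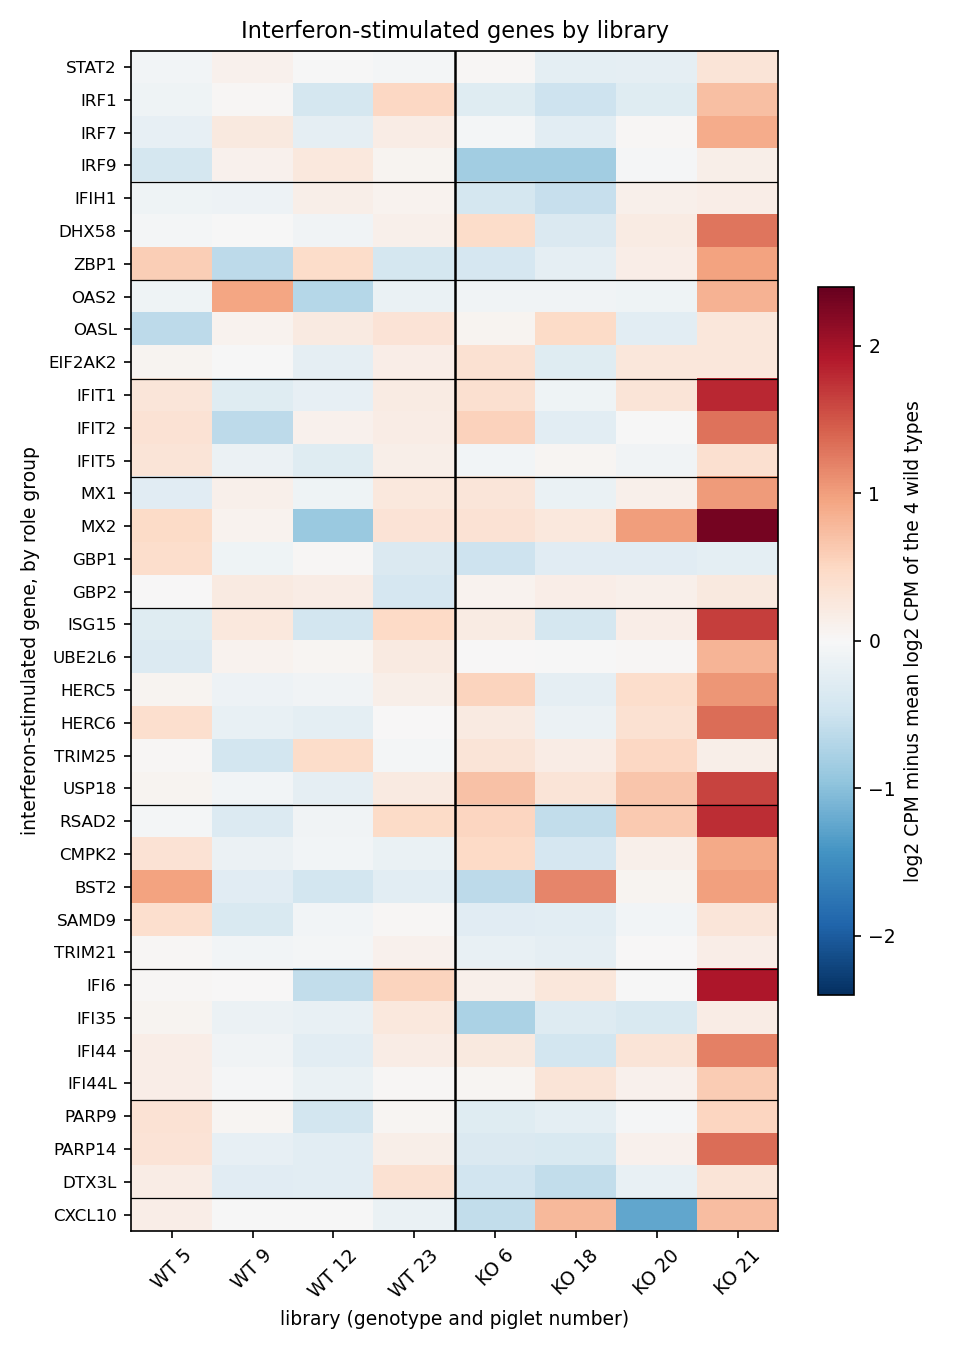
Level of each of the 36 tested interferon-stimulated genes (rows, grouped by role) in each library (columns, 4 wild type then 4 knockout), as log2 CPM minus the mean log2 CPM of the 4 wild-type piglets. The column of knockout piglet 21 is red in most rows, while knockout piglet 18 is pale or blue in most rows and GBP1 is blue in all 4 knockout columns.

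**Figure D2:**
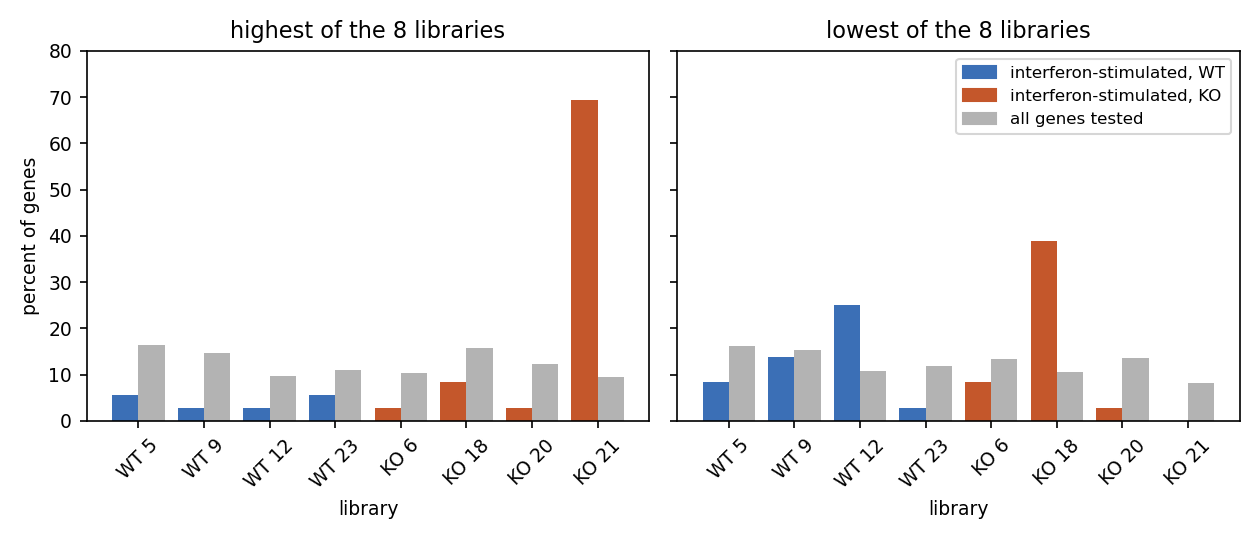
Percent of the 36 tested interferon-stimulated genes (coloured bars) and of all 17175 genes tested (grey bars) in which each library had the highest value (left) or the lowest value (right) of the 8. Knockout piglet 21 was highest in 69.4% of the members and 9.51% of all genes, and knockout piglet 18 lowest in 38.9% and 10.6%.

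No transcription factor of the response passed the test, and 3 of the 4 had negative log2 fold changes. STAT2, a subunit of the complex that drives these genes, was 111, 124, 116 and 113 CPM in the wild-type piglets and 118, 98.6, 100.02 and 143 CPM in the knockout piglets, a log2 fold change (± SE here and below) of -0.01 ± 0.12 (edgeR adjusted p = 0.9799). Its DNA-binding partner IRF9 was 0.481, 0.696, 0.774 and 0.675 CPM in the wild-type piglets and 0.364, 0.362, 0.638 and 0.7096 CPM in the knockout piglets, with -0.33 ± 0.33 (adjusted p = 0.683). Both groups overlapped for either gene, and only STAT2 was highest in piglet 21. IRF7, which amplifies type I interferon production, was 12.6, 17.03, 12.6 and 16.4 CPM in the wild-type piglets and 14.1, 12.1, 14.7 and 26.96 CPM in the knockout piglets, with 0.21 ± 0.25 (adjusted p = 0.736). Piglet 21 was 1.58-fold above the next highest library for IRF7, and the other 3 knockout piglets lay inside the wild-type range or just below it. IRF1, the factor most tied to type II interferon, had a log2 fold change of -0.04 ± 0.29 with 46.5 CPM in piglet 21, while knockout piglets 6, 18 and 20 (23.2, 20.04 and 23.2 CPM) were low in the wild-type range of 21.02 to 39.7 CPM or below it. Counts of 3 of these genes are uncertain, since another gene covers 93.1% of the exon bases of IRF7 (PHRF1), 85.2% of IRF9 (REC8) and 49.4% of STAT2 (PAN2 and IL23A), and IRF9 held only 13 to 32 reads. Among the other members the share was at most 8.8% (HERC5).

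Among the sensors of viral RNA, DHX58 (LGP2), which modulates sensing by the related helicases, was 13.2, 13.5, 12.9 and 14.8 CPM in the wild-type piglets and 18.4, 10.7, 15.6 and 33.1 CPM in the knockout piglets. Its log2 fold change was 0.52 ± 0.29 (adjusted p = 0.505). The wild-type piglets were tightly grouped for this gene, knockout piglets 6, 20 and 21 lay above all of them, and piglet 18 lay below all of them. IFIH1 (MDA5), the sensor of long double-stranded RNA, was 18.1, 17.9, 21.6 and 20.6 CPM in the wild-type piglets and 14.5, 13.2, 21.2 and 21.9 CPM in the knockout piglets, with a log2 fold change of -0.14 ± 0.18 (adjusted p = 0.7501). Wild-type piglet 12 lay between knockout piglets 20 and 21 for IFIH1, and knockout piglets 6 and 18 lay below all wild-type piglets. ZBP1, a sensor of Z-form nucleic acid, was rare at 16 to 64 reads per library, and its log2 fold change was 0.12 ± 0.41.

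None of the 3 tested effectors that act on double-stranded RNA was highest in piglet 21. EIF2AK2 (PKR), the kinase that halts translation, was 43.1, 40.99, 35.3 and 45.8 CPM in the wild-type piglets and 52.8, 33.6, 49.3 and 49.9 CPM in the knockout piglets, a log2 fold change of 0.17 ± 0.15 (adjusted p = 0.644). Knockout piglets 6, 20 and 21 lay close together and above every wild-type piglet, while piglet 18 was the lowest of the 8. OAS2, an oligoadenylate synthetase that activates RNase L, was 89.8, 185, 59.3 and 85.7 CPM in the wild-type piglets and 90.5, 90.6, 89.2 and 171 CPM in the knockout piglets, with 0.07 ± 0.35 (adjusted p = 0.945). The value of wild-type piglet 9 was the highest of all for OAS2, although that piglet was highest in no other member, and knockout piglets 6, 18 and 20 were almost equal. OASL, a related protein, was 1.42, 2.31, 2.54 and 2.75 CPM in the wild-type piglets and 2.28, 3.01, 1.85 and 2.65 CPM in the knockout piglets with 0.12 ± 0.27 (adjusted p = 0.874), and its highest value was in piglet 18.

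The IFIT proteins bind RNA ends that host mRNAs lack. IFIT1 (ENSSSCG00000010452, chromosome 14, 101213979 to 101251108 on the plus strand, build not stated) was 16.1, 10.8, 11.6 and 15.1 CPM in the wild-type piglets and 17.1, 12.3, 16.3 and 46.4 CPM in the knockout piglets, a log2 fold change of 0.78 ± 0.39 (adjusted p = 0.464). Piglet 21 held 3.04 times the mean of the other 3 knockout piglets. IFIT2 was 15.4, 7.82, 12.9 and 13.7 CPM in the wild-type piglets and 17.6, 10.2, 12.1 and 29.8 CPM in the knockout piglets, with 0.49 ± 0.34 (adjusted p = 0.571), and IFIT5 was 34.5, 25.5, 22.8 and 30.7 CPM in the wild-type piglets and 26.7, 29.02, 26.5 and 36.7 CPM in the knockout piglets, with 0.07 ± 0.16 (adjusted p = 0.873). These 3 genes neighbour each other on chromosome 14, and the excess of piglet 21 over the other knockout animals was 3.04-fold for IFIT1, 2.24-fold for IFIT2 and 1.34-fold for IFIT5.

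Of the interferon-induced GTPases, MX2 had the largest log2 fold change of the tested members with all libraries, but not without piglet 21, where it was 0.49 and that of USP18 was 0.56. MX2 (ENSSSCG00000012076, chromosome 13, 204798302 to 204831975 on the plus strand) was 16.7, 12.9, 6.53 and 15.2 CPM in the wild-type piglets and 15.4, 14.4, 24.4 and 59.3 CPM in the knockout piglets, a log2 fold change of 1.14 ± 0.48 (unadjusted p = 0.0397, adjusted p = 0.4303). Knockout piglets 20 and 21 lay above all wild-type piglets, knockout piglets 6 and 18 lay within the wild-type range, and wild-type piglet 12 was far below the rest. Its neighbour MX1, a dynamin-like GTPase that traps viral nucleoproteins, was 123, 160.4, 137 and 177 CPM in the wild-type piglets and 182, 133, 162 and 300.1 CPM in the knockout piglets, with 0.38 ± 0.24 (adjusted p = 0.536). Piglets 21 and 6 were the highest for MX1, and piglet 18 lay within the wild-type range. GBP1, a guanylate-binding protein that attacks vacuoles of intracellular microbes, had the opposite sign, at 8.32, 5.73, 6.29 and 4.86 CPM in the wild-type piglets and 4.35, 5.13, 5.13 and 5.23 CPM in the knockout piglets, a log2 fold change of -0.35 ± 0.19 (adjusted p = 0.504), the lowest of all members. The knockout values of GBP1 were close together, and only wild-type piglet 23 fell among them. The GBP1 gene model spans 16048 exon bases and contains GBP2 within its limits, so reads of the GBP family may be divided between models. GBP2 had a log2 fold change of 0.13 ± 0.16, with knockout values of 9.54 to 10.53 CPM and wild-type values of 6.77 to 10.48 CPM. Piglet 21 lay just above the wild-type range for GBP2 and the other 3 knockout piglets lay within it.

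All 6 members of the ISG15 conjugation pathway had positive log2 fold changes, with a median of 0.52. USP18 (ENSSSCG00000000774, chromosome 5, 70183279 to 70227984 on the plus strand), the protease that removes ISG15 from proteins and also dampens signalling at the type I receptor, was 11.2, 10.2, 9.21 and 12.3 CPM in the wild-type piglets and 17.3, 13.2, 16.8 and 32.9 CPM in the knockout piglets. It was the one member whose groups did not overlap, at a mean of 10.7 ± 1.34 CPM for wild type against 20.04 ± 8.75 CPM for knockout (SD over the 4 piglets of each group). The log2 fold change was 0.90 ± 0.27 (unadjusted p = 0.00773, adjusted p = 0.371, DESeq2 adjusted p = 0.0638). Without piglet 21 it was 0.56 ± 0.16 (adjusted p = 0.60). Groups that do not overlap with all libraries cannot overlap with fewer, so the lack of overlap without piglet 21 is by construction.

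HERC5, the ligase that attaches ISG15 to newly made proteins, was 16.9, 14.7, 15.04 and 17.7 CPM in the wild-type piglets and 23.3, 13.8, 21.5 and 33.3 CPM in the knockout piglets, with a log2 fold change of 0.51 ± 0.23 (adjusted p = 0.447). As for DHX58 and EIF2AK2, knockout piglets 6, 20 and 21 lay above and piglet 18 below all 4 wild-type piglets for HERC5. UBE2L6, the conjugating enzyme of the pathway, was 33.3, 44.3, 43.02 and 48.4 CPM in the wild-type piglets and 42.3, 41.6, 42.9 and 73.6 CPM in the knockout piglets, with 0.25 ± 0.20 (adjusted p = 0.625). The other 3 knockout piglets lay close together for UBE2L6, inside the wild-type range. ISG15 itself (ENSSSCG00000040575, chromosome 6, 63362889 to 63365398 on the plus strand) had a log2 fold change of 0.57 ± 0.43 and reached 49.8 CPM in piglet 21, against 11.8 to 17.9 CPM in the other knockout piglets and 11.5 to 21.97 CPM in wild type. HERC6 had 0.53 ± 0.30 and was highest in piglet 21. TRIM25, a ubiquitin ligase that activates RNA sensing, had 0.26 ± 0.18 and was the one gene of the pathway that was not highest in piglet 21, whose value was 0.876 times the mean of the other 3 knockout piglets.

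**Figure D3:**
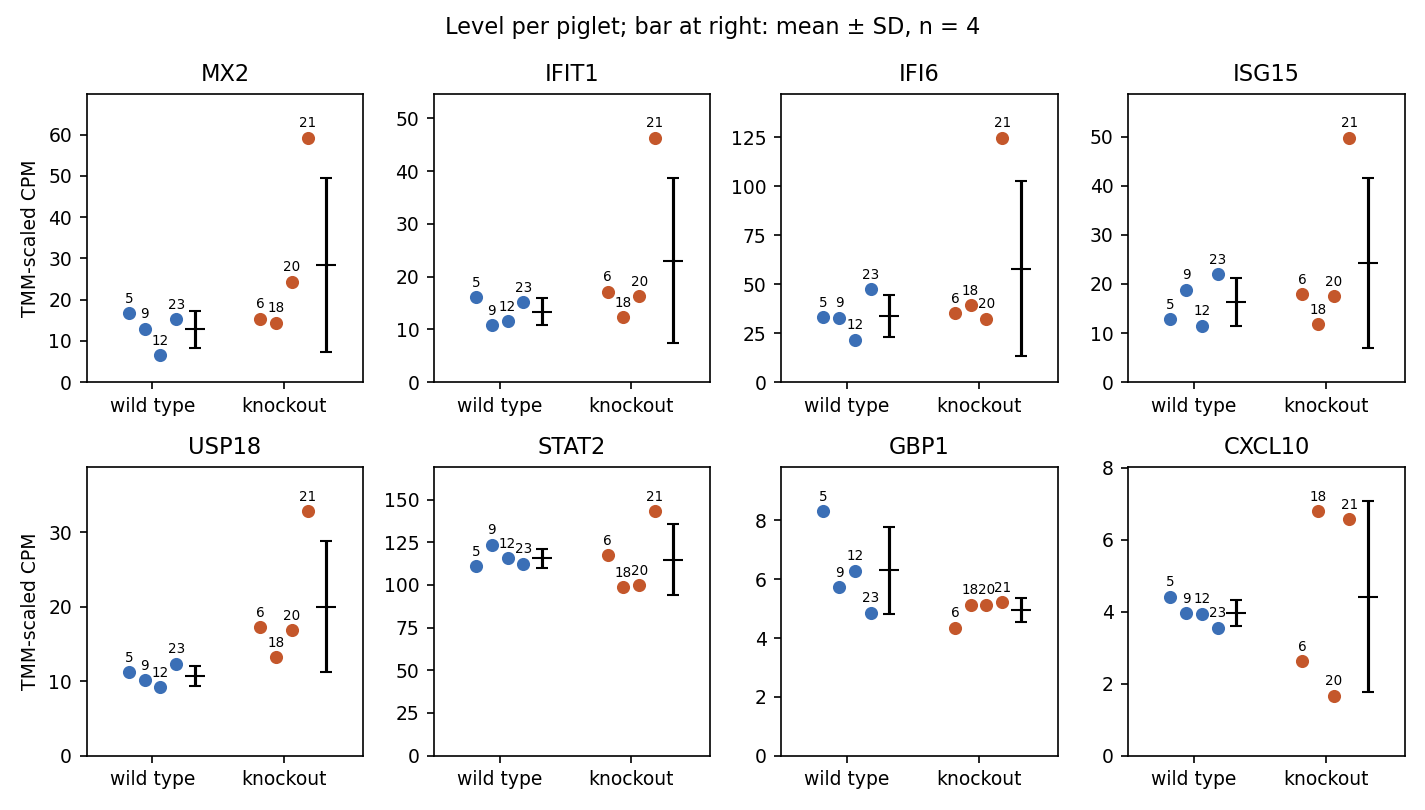
TMM-scaled CPM of 8 members in each piglet (points, labelled by piglet number; blue wild type, orange knockout), with the mean ± SD of each group of 4 at its right; every vertical axis starts at 0. For MX2, IFIT1, IFI6 and ISG15 the knockout SD is set by piglet 21, USP18 shows no overlap, the 4 knockout values of GBP1 lie close together, and CXCL10 is high in knockout piglets 18 and 21 and low in 6 and 20.

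Among the other antiviral effectors, RSAD2 (viperin), which makes a nucleotide that ends viral RNA chains, was 6.88, 5.67, 6.67 and 9.77 CPM in the wild-type piglets and 10.1, 4.71, 11.03 and 24.3 CPM in the knockout piglets, with a log2 fold change of 0.79 ± 0.43 (adjusted p = 0.493). CMPK2, a mitochondrial nucleotide kinase whose gene lies beside RSAD2 on chromosome 3, was 9.09, 6.52, 6.87 and 6.45 CPM in the wild-type piglets and 10.02, 5.38, 7.82 and 13.4 CPM in the knockout piglets, with 0.34 ± 0.27 (adjusted p = 0.607). Both genes had their lowest value in piglet 18, and knockout piglets 6, 20 and 21 lay above all wild-type piglets for RSAD2 but not for CMPK2, where wild-type piglet 5 exceeded piglet 20. TRIM21, a cytosolic antibody receptor, was 8.704, 8.17, 8.29 and 9.24 CPM in the wild-type piglets and 7.61, 7.41, 8.64 and 9.65 CPM in the knockout piglets, with -0.05 ± 0.13 (adjusted p = 0.901). All of its values lay between 7.41 and 9.65 CPM. BST2 (tetherin), which holds budding virus at the cell surface, had 0.45 ± 0.46 and was high in wild-type piglet 5 and knockout piglets 18 and 21 (5.34, 6.22 and 5.46 CPM) against 1.78 to 2.87 CPM in the other 5. SAMD9, a restriction factor for poxviruses, had -0.09 ± 0.19.

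IFI6, a small membrane protein, showed the widest gap between piglet 21 and the other knockout animals. IFI6 (ENSSSCG00000034570, chromosome 6, 84852773 to 84857979 on the minus strand) was 33.3, 32.9, 21.6 and 47.4 CPM in the wild-type piglets and 35.2, 39.4, 32.4 and 125 CPM in the knockout piglets, a log2 fold change of 0.78 ± 0.45 (adjusted p = 0.5099). Piglet 21 held 3.501 times the mean of the other 3, which all lay within the wild-type range. IFI44L was 53.4, 46.9, 43.2 and 49.2 CPM in the wild-type piglets and 49.96, 59.6, 51.7 and 73.2 CPM in the knockout piglets, with 0.28 ± 0.13 (adjusted p = 0.449). The knockout values of IFI44L exceeded those of 3 wild-type piglets, and wild-type piglet 5 lay above knockout piglets 6 and 20. IFI44, whose gene lies within the limits of the IFI44L model, had 0.43 ± 0.30, and IFI35 had -0.29 ± 0.21.

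PARP14, an ADP-ribosyltransferase, was 7.33, 5.096, 4.93 and 6.47 CPM in the wild-type piglets and 4.65, 4.57, 6.29 and 14.9 CPM in the knockout piglets, with a log2 fold change of 0.35 ± 0.38 (adjusted p = 0.713). The neighbouring PARP9 and DTX3L encode partners in a complex that modifies histones and viral proteins. PARP9 was 18.7, 15.3, 10.8 and 15.2 CPM in the wild-type piglets and 12.1, 12.5, 14.4 and 20.9 CPM in the knockout piglets, with -0.00 ± 0.22 (adjusted p = 0.997), and DTX3L was 3.895, 2.85, 2.88 and 4.42 CPM in the wild-type piglets and 2.51, 2.29, 3.03 and 4.28 CPM in the knockout piglets, with -0.21 ± 0.26 (adjusted p = 0.747). In knockout piglets 6, 18 and 20 all 3 genes lay in the lower part of the wild-type range or below it, except PARP14 in piglet 20. CXCL10, the chemokine that attracts activated T cells, was 4.42, 3.96, 3.94 and 3.56 CPM in the wild-type piglets and 2.62, 6.801, 1.66 and 6.58 CPM in the knockout piglets, with 0.15 ± 0.42 (adjusted p = 0.897). Wild-type values of CXCL10 were nearly equal, whereas knockout piglets 18 and 21 lay above and 6 and 20 below all of them.

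The members in which piglet 21 stood out most against the mean of the other 3 knockout piglets were IFI6 (3.501-fold), MX2 (3.28), ISG15 (3.16), IFIT1 (3.04), PARP14 (2.88) and RSAD2 (2.82). The ratio was 1.74 at the median of the 36 members and above 1 in 35. Piglet 21 was singled out from these same values, so the ratio partly repeats that choice, and its value over all genes is not given here. At the other end, GBP1 and GBP2 (both 1.07), EIF2AK2 (1.103) and OASL (1.11) were nearly level. The coefficient of variation was 19.1% at the median of the members in wild type and 37.1% in knockout, but 16.4% in the 3 knockout piglets without 21. Over all genes tested these medians were 16.1%, 13.5% and 13.5%.

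Leaving out libraries changed the description of the members, although none was called in any of these fits. Without knockout piglet 21, 20 of 37 members were positive and the median was 0.06. In the higher direction, 1 member (USP18) had an unadjusted p under 0.05 (all genes, 3.89%). USP18 was also the 1 member without overlap in that direction (all genes, 3.61%), by construction, since its groups did not overlap with all libraries. The remaining knockout values of IFI35 were below all its wild-type values, 1 member in that direction (all genes, 831 of 17341). Without knockout piglet 18, the median was 0.28, and 11 of 36 members (30.6%) had an unadjusted p under 0.05 in the higher direction, against 5.46% of all genes. These were DHX58, EIF2AK2, IFIT1, MX1, MX2, HERC5, HERC6, USP18, RSAD2, CMPK2 and IFI44. They were read in the same animals, and all but EIF2AK2 were highest in piglet 21, so they are not independent of each other. In 7 of them (DHX58, EIF2AK2, IFIT1, HERC5, USP18, RSAD2 and IFI44) all 3 remaining knockout values exceeded all wild-type values (19.4%, against 5.22% of all genes), and the lowest adjusted p was 0.335, for USP18. With both piglets left out, a step chosen after seeing the data, knockout piglets 6 and 20 remained. Their median was -0.00052, 18 of 37 members were positive, and 3 (EIF2AK2, HERC5 and USP18) had an unadjusted p under 0.05 in the higher direction, against 4.09% of all genes. The 7 members without overlap among piglets 6, 20 and 21 remain so by construction (18.9%, against 9.18% of all genes). IFI35 and CXCL10 were below all wild-type values (all genes, 1810 of 17589). In the 6 libraries with no Y-linked read, 0 members had an unadjusted p under 0.05, and USP18 had a log2 fold change of 0.77.

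**Figure D4:**
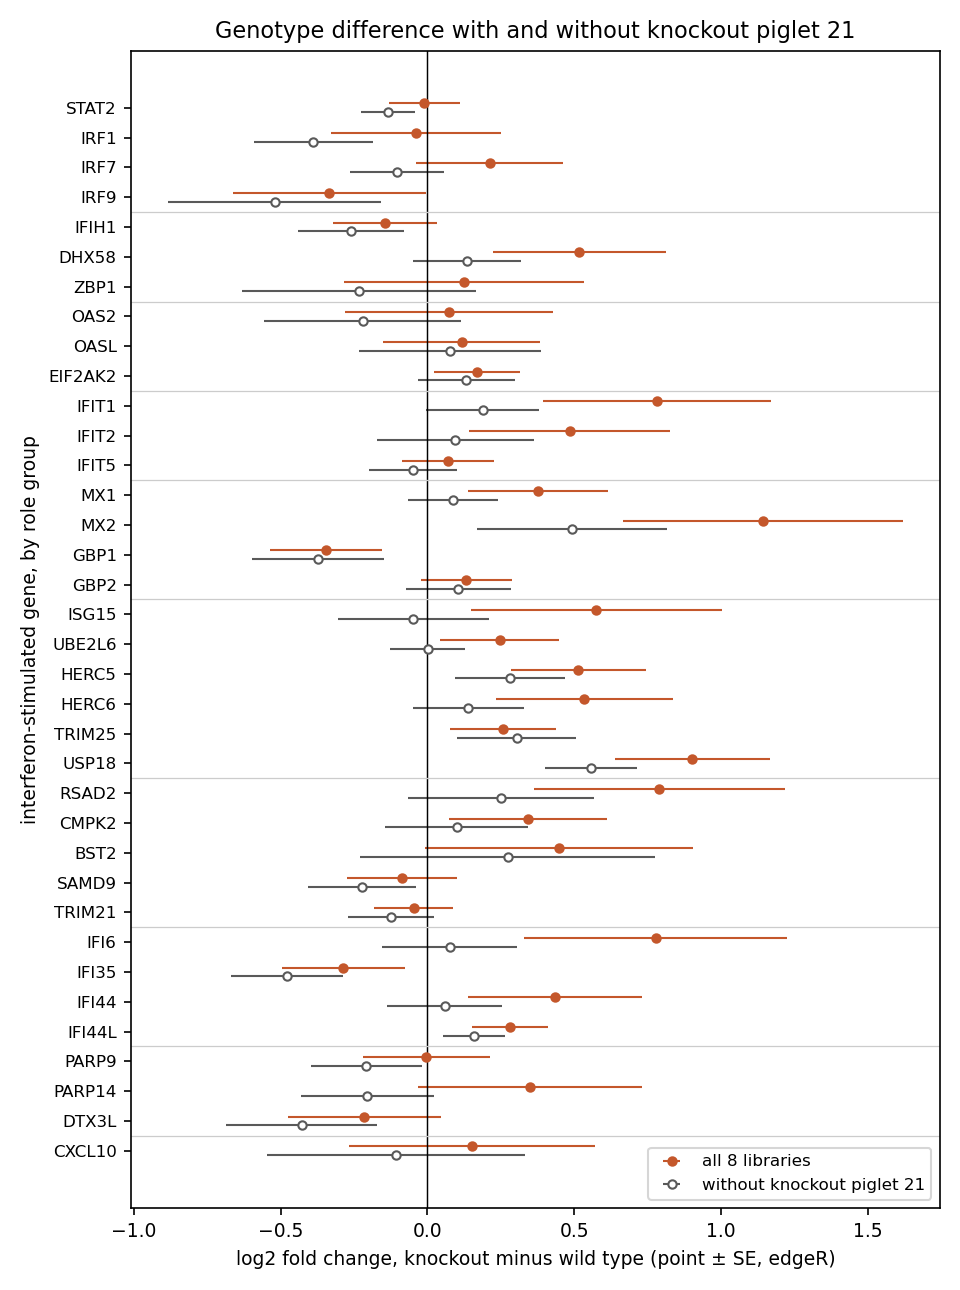
Log2 fold change of each tested member, knockout minus wild type (point ± SE, edgeR), with all 8 libraries (filled) and without knockout piglet 21 (open), in role groups separated by lines. Without piglet 21, USP18 (0.56), MX2 (0.49), TRIM25 (0.30) and HERC5 (0.28) are among the members to the right of 0. ISG15, IFI6, UBE2L6 and PARP14 are among those that move to near or below 0.

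Per kilobase of exon, the members covered a wide range of levels in this tissue. MX1 was the most abundant at 75.3 CPM per kb in wild type and 97.7 in knockout. It was followed by IFI6 (25.7 and 44.0), UBE2L6 (26.7 and 31.7), OAS2 (22.6 and 23.8), STAT2 (20.5 and 20.4) and IFI44L (15.2 and 18.5). The order of IFI6, UBE2L6 and OAS2 was not fixed, since their spreads between animals overlapped. In both groups 30 of the 36 members exceeded 1 CPM per kb. The least abundant per kilobase were CXCL10 (0.938 and 1.04), ZBP1 (0.592 and 0.647), GBP1 (0.393 and 0.309) and IRF9 (0.386 and 0.305). The place of GBP1 depends on its model of 16048 exon bases. By CPM alone GBP1 (6.30 and 4.96) was above CXCL10 (3.97 and 4.42). The levels of IRF9, IRF7 and STAT2 are uncertain because other genes cover much of their exon bases.

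Upstream of the members, 7 interferon genes were listed and 4 were matched. The IFNA genes and other type I interferons were not looked for. IFNB1, IFNG and IFNK had 0 reads in all 8 libraries, which allows up to 0.0683 to 0.0949 CPM by library (3 reads, counting error only). IFNE, a type I interferon expressed constitutively by epithelia, was 0.265, 0.253, 0.242 and 0.326 CPM in the wild-type piglets and 0.0456, 0.0279, 0.1596 and 0.142 CPM in the knockout piglets. Its groups did not overlap and its log2 fold change was -1.48 ± 0.50 (unadjusted p = 0.0158, adjusted p = 0.405), at a level near that of single reads in piglets 6 and 18. IFNE held 8 to 14 reads in the wild-type and 1 to 7 in the knockout libraries. It passed the filter on low counts only through the wild-type group. The filter thus favoured this direction, and the test is no independent support for it. IFNL1, IFNL3 and IFNL4 were not matched.

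Of 15 tested receptors, kinases, STATs and inhibitors, 0 were called, 9 were positive and the median log2 fold change was 0.06. PIAS1, an inhibitor of the pathway, was 67.4, 56.4, 63.1 and 62.2 CPM in the wild-type piglets and 77.9, 79.7, 80.9 and 67.8 CPM in the knockout piglets, without overlap between groups, a log2 fold change of 0.30 ± 0.08 (unadjusted p = 0.00628, adjusted p = 0.356). JAK2, a kinase of the type II receptor, had 0.26 ± 0.13. The receptor subunits IFNAR1 and IFNAR2 of type I interferon gave 0.08 ± 0.11 and 0.05 ± 0.16.

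Among 19 tested adaptors and kinases of nucleic acid sensing, 0 were called and the median was 0.05. UNC93B1, which delivers nucleic acid receptors to endosomes, had -0.35 ± 0.13 (unadjusted p = 0.0221, adjusted p = 0.409), and CGAS, the sensor of cytosolic DNA, had -0.96 ± 0.39 (unadjusted p = 0.0352, adjusted p = 0.422). CGAS was 1.56, 1.33, 0.605 and 1.28 CPM in the wild-type piglets and 0.319, 0.808, 0.729 and 0.591 CPM in the knockout piglets, with wild-type piglet 12 inside the knockout range. MAVS, the adaptor of the RNA sensors, had 0.12 ± 0.08. Piglet 21 was the highest library in 2 of the 20 matched genes of this list, against 25 of 36 tested members.

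Other interferon-induced genes, a second list of 50, were matched for 32 and tested for 28. None was called, 16 were positive, and the median was 0.05. DDX60, a helicase that supports RNA sensing, was 32.6, 25.1, 34.8 and 44.9 CPM in the wild-type piglets and 42.1, 38.1, 57.1 and 110.2 CPM in the knockout piglets, with 0.85 ± 0.33 (unadjusted p = 0.0307, adjusted p = 0.418). ZC3HAV1, which binds and degrades viral RNA, had -0.28 ± 0.12 and the aminopeptidase LAP3 -0.25 ± 0.11, with unadjusted p-values of 0.0434 and 0.0453. Piglet 21 was the highest library in 17 of the 32, among them DDX60, RTP4, PARP12 and CXCL11.

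Of 12 tested genes of class I antigen presentation, 6 were positive, and the median was 0.00. PSME2, a subunit of the proteasome activator that is induced by type II interferon, was 46.8, 47.98, 37.6 and 47.1 CPM in the wild-type piglets and 28.5, 32.6, 31.5 and 35.7 CPM in the knockout piglets. Its groups did not overlap, and its log2 fold change was -0.49 ± 0.11 (adjusted p = 0.326 in edgeR and 0.0129 in DESeq2, which called this gene). PSMB10, an immunoproteasome subunit, had -0.34 ± 0.17, and TAP1, the peptide transporter, had 0.22 ± 0.20 with 81.4 CPM in piglet 21 against 42.1 to 57.1 CPM elsewhere. The 6 tested genes of class II presentation had a median of 0.04 and were summed highest in piglet 18 (130.0 CPM) rather than in piglet 21 (87.6 CPM).

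A list of inflammatory genes was also high in piglet 21. It holds cytokines and chemokines, and also NFKBIA, TNFAIP3, PTGS2, SOD2 and ICAM1, which are not cytokines. The summed level of 15 matched genes of that list was 1066 CPM in piglet 21 and 335 to 526 CPM in the other libraries, and piglet 21 was highest in 11 of the 15. CXCL2, a neutrophil-attracting chemokine, was 149 CPM there and 3.87 to 12.03 CPM elsewhere, and IL6 was 68.2 against 2.67 to 29.3 CPM. CXCL10 was also above all wild-type piglets in piglet 21, at a level just under that of piglet 18. Of the 5 immune cell marker lists, only that of dendritic cells had its highest sum in piglet 21. Summed macrophage and monocyte markers (12 of 12 matched) were 98.7 CPM in piglet 21 and 72.4 to 346 CPM in the others, with 0 of 12 highest in it. Neutrophil markers (11 of 12 matched) were 31.01 CPM against 13.6 to 47.9 CPM, with MPO at 0 in 4 libraries and ELANE in 5. T and NK cell markers (10 matched) were 112 CPM against 87.6 to 138 CPM, and B and plasma cell markers (8 matched) 324 CPM against 243 to 387 CPM. Dendritic cell markers (8 matched) were 122 CPM against 92.2 to 119 CPM, mostly from BCL11A, while CLEC9A had reads in 1 library only. Piglet 18, which held the lowest value in 14 members, was the highest library for macrophage (346 CPM), neutrophil (47.9 CPM) and erythroid markers (301 CPM). The part of inflammation and of bone RNA in piglet 18 in the members' values was not tested.

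**Figure D5:**
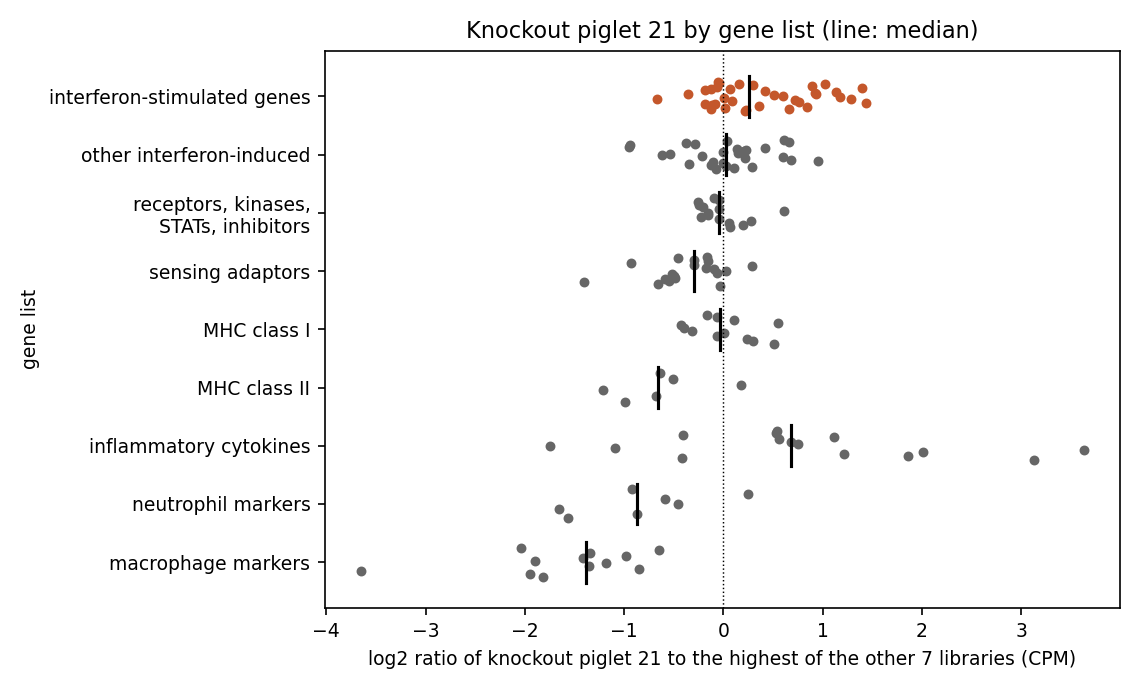
Log2 ratio of knockout piglet 21 to the highest of the other 7 libraries for each tested gene (points) of 9 lists, with the list median as a black line; points right of 0 are genes highest in piglet 21. The median ratio was 1.199 for the interferon-stimulated genes and 1.603 for the inflammatory list, against 0.546 for neutrophil and 0.384 for macrophage markers. The list labelled inflammatory cytokines also holds NFKBIA, TNFAIP3, PTGS2, SOD2 and ICAM1.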

How the data were processed

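The deposited values are the authors' raw read counts, gene by gene, for all 8 libraries, in a table laid out like featureCounts output per the file headers. The submitters' processing notes name DESeq2, HTSeq, STAR 2.4.0, Subread 1.5.0-p3, FastQC and featureCounts, without stating what each was used for. The genome build and whether reads were counted by strand are not given in the sources used here, so overlapping genes are uncertain, as are near-identical family members such as the IFIT, GBP and OAS genes. A gene name table gave symbols for 14857 identifiers, those of all matched members included. Spike-in sequences had 0 reads, and 5888 identifiers of an extra sequence (94 to 727 reads per library) were left out. Library totals of 30836904 to 43253395 reads set the counting precision, and rare members such as IRF9 and ZBP1 are the least certain.

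The main test was the edgeR 4.0.16 quasi-likelihood test (R 4.3.3) on the counts of all genes, with TMM scaling, the default filter on low counts, genotype as the only term and Benjamini-Hochberg adjustment over 17175 genes at 0.05. Standard errors come from the F statistic. The script was tested on simulated data. Alternatives were other normalizations and filters, DESeq2 1.42.0, limma 3.58.1 with sample quality weights, Y-linked reads as a covariate and the omission of libraries. Each library is labelled as its own animal, and p-values rest on the spread between animals. The members and lists were chosen with earlier results of these data known. Values in all libraries are given, within each role group, for the 2 tested members with the smallest p and the one with the highest level per kilobase, and in each pathway list up to 3 genes with the smallest p are named; 1 gene of these lists is not reported here. Further genes (IRF1, ZBP1, ISG15, HERC6, TRIM25, GBP2, BST2, SAMD9, IFI44 and IFI35 among the members, and IFNAR1, IFNAR2, TAP1, RTP4, PARP12, CXCL11, CXCL2, IL6 and BCL11A outside them) complete the member list or were chosen after their values were seen.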

Additional observations from a re-analysis of the deposited data

Results flagged for a closer look

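Of 72 groups of 4 values checked (36 members in 2 genotypes), 10 held a sample whose gap to its nearest neighbour exceeded Dixon's critical value as a share of the group's range, where chance flags about 1 in 20. Knockout piglet 21 was the far sample in 7 of them. Its values were 46.5 CPM for IRF1, 171 CPM for OAS2, 46.4 CPM for IFIT1, 49.8 CPM for ISG15, 73.6 CPM for UBE2L6, 125 CPM for IFI6 and 14.9 CPM for PARP14, each the highest of the 4 knockout piglets. Since these values come from 1 library, the 7 are not independent. GBP1 was low in knockout piglet 6 at 4.35 CPM. Wild-type piglet 5 stood above the other wild-type piglets at 9.09 CPM for CMPK2 and 5.34 CPM for BST2. Outside the genes analysed, the extra sequence of unstated origin took 727 reads in knockout piglet 18 and 94 to 560 reads in the other libraries, with the wild-type piglets at 94 to 354.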

How the results depend on the processing

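No member was called under any of the 19 alternatives, and none had an adjusted p below 0.0638 (USP18 with DESeq2, where the adjusted p of USP18 over all alternatives ran up to 0.762). Of the 26 members chosen by the naming rule, 16 kept the sign of their log2 fold change under all alternatives run. The median over the members ran from -0.00052 to 0.31 and the number of positive members from 18 to 30, both lowest without knockout piglets 18 and 21.

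The number of genes called over the whole table was 1, and 219 with DESeq2, 11 with limma, 4 at an adjusted p under 0.1, 2 without wild-type piglet 5 and knockout piglet 18, 0 without knockout piglets 18 and 21, 0 in the libraries with no Y-linked read, and 0 to 16 with single libraries left out (16 without wild-type piglet 12, 0 without knockout piglet 6 or 20). CFTR missed the threshold without knockout piglet 6 (adjusted p = 0.122) or 20 (0.0544), without 18 and 21 (0.169) and in the libraries with no Y-linked read (0.0668). Members with groups that did not overlap, in either direction, numbered 1, and 11 without piglets 5 and 18, 9 without 18 and 21, 3 in the libraries with no Y-linked read and 1 to 7 with single libraries left out (7 without knockout piglet 18). Over all genes, 421 were higher and 577 lower of 17175 in the main fit. They were 1538 and 1798 of 17229 without piglets 5 and 18, and 1615 and 1810 of 17589 without 18 and 21. In the libraries with no Y-linked read they were 2058 and 1849 of 17587, and without piglet 18 they were 907 and 1139 of 17359. Such counts rise for all genes as libraries are left out. Members at an unadjusted p under 0.05 in the higher direction numbered 2, and 4 with DESeq2, 10 without piglets 5 and 18, 0 with a covariate for Y-linked reads, 0 in the libraries without such reads and 1 to 11 with single libraries left out (11 without knockout piglet 18). Over all genes these were 928 of 17175, and 1076 with DESeq2, 1077 of 17229 without piglets 5 and 18, and 948 of 17359 without piglet 18. With the Y-linked covariate they were 1041 of 17175, and in the libraries without such reads 1163 of 17587.

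Signs changed for members near 0 and for some farther from it (IFI6, 0.78 with all libraries, PARP14, 0.35, and ISG15, 0.57, which was -0.048 without knockout piglet 21). With single libraries left out, log2 fold changes ran from -0.10 to 0.34 for IRF7, -0.13 to 0.054 for STAT2, -0.061 to 0.23 for OASL, -0.22 to 0.50 for OAS2, -0.049 to 0.17 for IFIT5, -0.12 to 0.0029 for TRIM21, -0.20 to 0.53 for PARP14, -0.21 to 0.11 for PARP9 and -0.14 to 0.42 for CXCL10. Without piglets 18 and 21 the values were -0.026 for IRF7, -0.13 for OASL, -0.22 for OAS2, -0.091 for IFIT5, -0.00052 for IFI6, -0.12 for PARP14 and -0.89 for CXCL10. Without piglets 5 and 18 they were 0.030 for STAT2, -0.17 for OASL, 0.0034 for TRIM21, 0.19 for PARP9 and -0.087 for CXCL10. With limma they were 0.041 for STAT2, 0.056 for PARP9 and -0.012 for CXCL10. A covariate for Y-linked reads gave 0.039 for STAT2 and -0.13 for IFIT5, and the libraries without such reads gave 0.035 and -0.13. The cause was not tested. Leaving out knockout piglets 18 and 21 together was chosen after seeing the data. No paired analysis was possible because the groups share no replicate number.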

Other observations

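ERAP1, an aminopeptidase that trims peptides for class I presentation, split the animals without regard to genotype. It was 0.168, 11.3, 0.145 and 12.7 CPM in the wild-type piglets and 9.795, 0.139, 0.182 and 13.7 CPM in the knockout piglets, so wild-type piglets 9 and 23 and knockout piglets 6 and 21 lay at 9.795 to 13.7 CPM and the other 4 at 0.139 to 0.182 CPM. ITGAM, an integrin of myeloid cells, was 11.8, 8.07, 16.1 and 10.1 CPM in the wild-type piglets and 24.8, 25.1, 20.4 and 15.99 CPM in the knockout piglets, with wild-type piglet 12 just above knockout piglet 21, a log2 fold change of 0.91 ± 0.23 (edgeR unadjusted p = 0.00299, adjusted p = 0.334). LTF, the iron-binding protein lactoferrin of glands and neutrophils, was 6.805, 3.64, 3.85 and 2.37 CPM in the wild-type piglets and 4.58, 11.1, 11.2 and 13.3 CPM in the knockout piglets, with wild-type piglet 5 inside the knockout range, and 1.27 ± 0.39 (adjusted p = 0.372). TLR7, an endosomal receptor for single-stranded RNA, was too rare to be tested and was 0.02405, 0.0317, 0.0967 and 0.0931 CPM in the wild-type piglets and 0.319, 0.195, 0.365 and 0.284 CPM in the knockout piglets, without overlap between the groups. All were chosen after their values were seen.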
